A study of Magallana angulata with 8 samples.

Results

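Programmed cell death genes were followed in 2 tissues, gills (G) and mantle (M), of the Fujian oyster *Crassostrea angulata* in a digital gene expression (DGE) series, in which sequenced reads are counted gene by gene. Members were all genes whose deposited annotation text contained baculoviral IAP, apoptosis, caspase, Bcl-2 or tumor necrosis factor in any case, and neither C1q nor NF-kappa-B. This text rule used no measured value. It took 122 of the 25647 genes, namely 54 inhibitors of apoptosis (IAP), 28 caspases, 5 genes of the Bcl-2 family, 5 tumor necrosis factor (TNF) ligands, 3 TNF receptors, 8 LPS-induced TNF-alpha factor (LITAF) genes, 2 TNF-induced genes and 17 other genes. Names and classes come from this annotation text, which rests on sequence similarity. 113 members had a mean of at least 1 RPKM over the libraries and were tested, among them 51 IAP genes and 23 caspases. RPKM are reads scaled by the coding length of the gene and by a read total of the library.

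Each of the 8 libraries was 1 pool of tissue RNA from 6 oysters, so that no condition was repeated. All oysters were 9 months old and came from 1 farming site. G1 and M1 were dissected directly after collection without Cu exposure. G2 and M2 were first acclimated for 7 days in tanks, then held under a Cu level of 30 µg/L for 30 days and fed algal powder. In both oyster groups the low (L) pool held the 6 oysters with the lowest tissue Cu of 60 measured, and the high (H) pool the 6 with the highest. The tissue and the Cu class are those of the library labels, while exposure, age and pool size follow the methods of the study. Captivity and Cu exposure cannot be told apart, and the Cu class is a difference between oysters that was measured, not a treatment. Whether the gill and the mantle pool of a class held the same oysters is not given unambiguously in the sources used here.

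Apoptosis in animals runs through caspases, proteases that are made as inactive precursors and that cut many cell proteins once activated. IAP proteins carry baculoviral IAP repeats (BIR), zinc-binding folds with which several of them bind caspases or receptor complexes and block cell death signals. Bcl-2 family proteins act upstream at the mitochondrion, where BAX and BAK-like members promote and Bcl-2-like members hold back the release of death factors, and TNF ligands and their receptors carry death or inflammatory signals from outside. In oysters the IAP family is known to be greatly expanded, and haemocytes, gill epithelium and mantle are regularly exposed to metals taken up from seawater.

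Between 2015375 and 2589524 reads were recovered per library from the steps of the RPKM values. These totals are lower than the mapped reads that the study reports for its libraries. M2-L stood apart, since its median gene was lower than in the other libraries, and over all 20123 genes tested the median log2 change from low to high Cu was 0.32 in M2 against 0.04 in G1, 0.10 in G2 and 0.03 in M1. Tissue labels were compared with marker lists. Of 41 tested cilia genes 26 were higher in gill and 0 in mantle, and of 8 tested muscle genes 5 were higher in mantle. Of 34 tested shell edge genes 12 were higher in mantle and 5 in gill. The gonad list took genes whose names held vitellogenin, vasa, synaptonemal, sperm or zona pellucida. Such names do not show that a gene is particular to gonad. Of its 41 tested genes 16 were higher in gill and 1 in mantle. Haemocyte plasma genes (6, extracellular superoxide dismutase and big defensin) summed to 17316 and 20016 RPKM in G1, 1016 and 5004 in G2, 43873 and 40470 in M1, and 9223 and 14393 in M2. None of these 6 was listed at 0 in every library. In pools of whole tissue, fewer cells of a type and less RNA per cell cannot be told apart, and the part of blood cells or cell mixture in the values that follow was not tested.

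The gene OYG_10020879_10035315, annotated as baculoviral IAP repeat-containing protein 7-A (BIRC7-A), is shown first because the study designed quantitative PCR primers for it. BIRC7, also called livin in humans, is an IAP that carries a RING domain. The study chose it on these same libraries, so its change with Cu class is not independent evidence of the direction of the family. For the genes it selected, the study states that quantitative PCR matched the sequencing pattern well, on RNA samples similar to those sequenced. The PCR values of this gene were not used here. The primer pair, written 5′ to 3′ and 20 bases each, marks the transcript that is measured here:
forward primer of OYG_10020879_10035315: gctgagagaaagaaccccct
reverse primer of OYG_10020879_10035315: gcgatgtttgatccagacat

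Throughout, the values of a pair are given in the order low Cu, then high Cu, and folds are taken on the log2(RPKM + 0.1) scale, so that they differ slightly from the ratio of the RPKM values. BIRC7-A OYG_10020879_10035315 stood at 64.4 and 15.1 RPKM in G1, 66.4 and 23.5 in G2, 33.9 and 14.4 in M1, and 41.0 and 6.85 in M2, from 18 to 177 reads. The 4 low-Cu libraries were therefore all above the 4 high-Cu libraries, in both tissues. On that scale the change from low to high Cu was -2.09 in G1, with an exact 95% interval for counting error from -2.65 to -1.57. In G2 it was -1.49 (-1.93 to -1.08), in M1 -1.23 (-1.86 to -0.64) and in M2 -2.56 (-3.39 to -1.85). Intervals of this kind compare 2 libraries and cover counting error only. In a limma fit over the 4 pairs with 1 common effect, chosen after seeing the data, the change was -1.85 ± 0.28 (SE). Its unadjusted limma p was 0.000248 and its adjusted p 0.412 over all genes. That fit takes the 4 pairs as independent, although the gill and mantle pools of a class may have held the same oysters. With 2 residual degrees of freedom in the fit with separate effects of the tissues, the limma adjusted p was 0.772 in gill and 0.364 in mantle, and in no alternative did it pass 0.05. The difference between the change in gill and that in mantle was 0.11 ± 0.59 (SE; limma adjusted p = 0.988).

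Levels within the classes were uneven. BIRC7-B OYG_10019372_10031392 had the highest mean among IAP genes, 294 RPKM, and gave 18.9% of the mean summed IAP level, followed by BIRC2 OYG_10026316_10022648 at 174, Apoptosis 2 inhibitor OYG_10026771_10015216 at 141 and Apoptosis 1 inhibitor OYG_10011513_10014249 at 120 RPKM. The median IAP gene was at 12.6 RPKM and the lowest at 0.131, and 42 of 54 had reads in all 8 libraries. BIRC3 and BIRC7 were the commonest annotations, with 11 genes each. Among caspases the effector type was the most abundant. Caspase-7 was given to 10 of the 28 genes, and 3 of these, OYG_10021185_10041944 at 76.5, OYG_10023427_10008411 at 62.3 and OYG_10027004_10005728 at 47.1 RPKM, had the highest caspase means. All 23 caspases with a mean of at least 1 RPKM had reads in each of the 8 libraries, and the other 5 were under 0.9 RPKM.

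Bcl-2-like protein 1 (OYG_10006540_10012631), named after the anti-apoptotic BCL-XL, ranged from 221 RPKM in M1-H to 527 in G2-L and held 86.8% of the mean level of its family. The pro-apoptotic BAX (OYG_10024766_10040725) ranged from 15.4 to 38.5 RPKM. The ligand TNFSF14 OYG_10005110_10034818 named after LIGHT of mammals, had the highest mean of all members, 477 RPKM, and lay between 338 and 590, while the TNF receptors were between 3.77 and 80.3 RPKM on average, with TNFRSF1B (OYG_10013090_10008419) the highest. LITAF-like proteins, which in vertebrates are small membrane proteins of the endosome and lysosome, reached a mean of 455 RPKM (OYG_10024159_10034848).

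The first comparison was that of high-Cu with low-Cu oysters in the gills. Genes of the IAP class made up most members that were lower with high Cu. 10 members were at least 2-fold lower in both gill pairs, where 3.13% of all tested genes were, and 9 of these 10 were among the 51 tested IAP genes (17.6%). In the other direction 2 members were at least 2-fold higher in both pairs, where 2.31% of all genes were, and neither was an IAP gene. With a 4-fold threshold 4 members were lower, all IAP (1.10% of all genes), and 0 higher (0.557%). Where Fisher's exact test on the recovered reads had to give an adjusted p of at most 0.001 in both pairs as well, a rule added after seeing the data, 7 members were lower, all IAP (0.517% of all genes), and 0 were higher (0.164%). The median change of the IAP genes was -0.43 in G1 and -0.29 in G2, against 0.04 and 0.10 over all genes.

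BIRC2 OYG_10026316_10022648, named after the vertebrate cIAP1, a ubiquitin ligase of TNF receptor complexes, showed the largest difference in RPKM among these 9. It stood at 376 and 86.1 RPKM in G1, and 389 and 96.0 in G2. The low-Cu gills were thus 4.37 and 4.05 times above the high-Cu gills, and the low-Cu gills resembled each other across the oyster groups. In mantle it was 95.03 and 87.5 in M1, and 190 and 74.8 in M2. The limma change in gill was -2.07 ± 0.33 (SE; unadjusted p = 0.000701, adjusted p = 0.371).

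Among the lower genes, BIRC3 OYG_10005392_10006012, a partial sequence named after cIAP2, had the largest change when genes were ordered by the smaller of their changes in the pairs. It went from 45.3 to 4.81 RPKM in G1 and from 87.8 to 4.72 in G2, that is 9.24-fold and 18.2-fold after the pseudocount of 0.1 was added, from 91 and 212 reads to 11 and 12. Its exact 95% intervals for counting error ran from -4.29 to -2.33 and from -5.19 to -3.38 on the log2 scale. In mantle it was 6.58 and 5.43 in M1, and 35.1 and 7.15 in M2. The gene with the next identifier, inhibitor of apoptosis protein OYG_10005393_10006012, had a like pattern, with 30.7 and 7.25 in G1, and 105 and 11.2 in G2. It was 6.03 and 3.99 in M1, and 31.5 and 12.2 in M2. In both genes the exposed low-Cu libraries, G2-L and M2-L, were the highest of their tissue.

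A second BIRC7-A gene, OYG_10016363_10020337, had the smallest limma p among members in gill. It was at 100 and 7.15 RPKM in G1, and 45.6 and 7.29 in G2, whereas the mantle values were 19.3 and 10.9 in M1, and 6.29 and 6.41 in M2. Here the unexposed low-Cu gill was the highest library. Its change in gill was -3.21 ± 0.45 (SE; limma unadjusted p = 0.000338, adjusted p = 0.309) and in mantle -0.40 ± 0.45 (adjusted p = 0.735). The difference between the tissues was -2.81 ± 0.64 with a limma adjusted p of 0.913.

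Putative inhibitor of apoptosis OYG_10000338_10015850 and BIRC7 OYG_10019361_10024154 were lower with high Cu in all 4 pairs. The former was 86.3 and 38.2 in G1, 62.7 and 12.8 in G2, 38.8 and 23.8 in M1, and 139 and 12.4 RPKM in M2. Its highest level was thus in an exposed low-Cu mantle, 11.1 times that of the high-Cu library of the same pair. The latter was 43.8 and 19.9 in G1, 28.3 and 10.8 in G2, 21.5 and 12.8 in M1, and 11.5 and 5.29 in M2. The remaining IAP genes of the 9, BIRC3 OYG_10005131_10025402 and BIRC3 OYG_10005229_10022789, had at most 14 and 7 reads in any gill library, and the intervals of their changes in G1 included 0. Just inside the 2-fold rule was BIRC7 OYG_10019361_10024154, at -1.13 in G1 and -1.38 in G2. Just outside were BIRC7-B OYG_10026858_10021846, at -0.94 and -1.18, and putative inhibitor of apoptosis OYG_10007421_10025997, at -0.91 and -2.09.

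**Figure D1:**
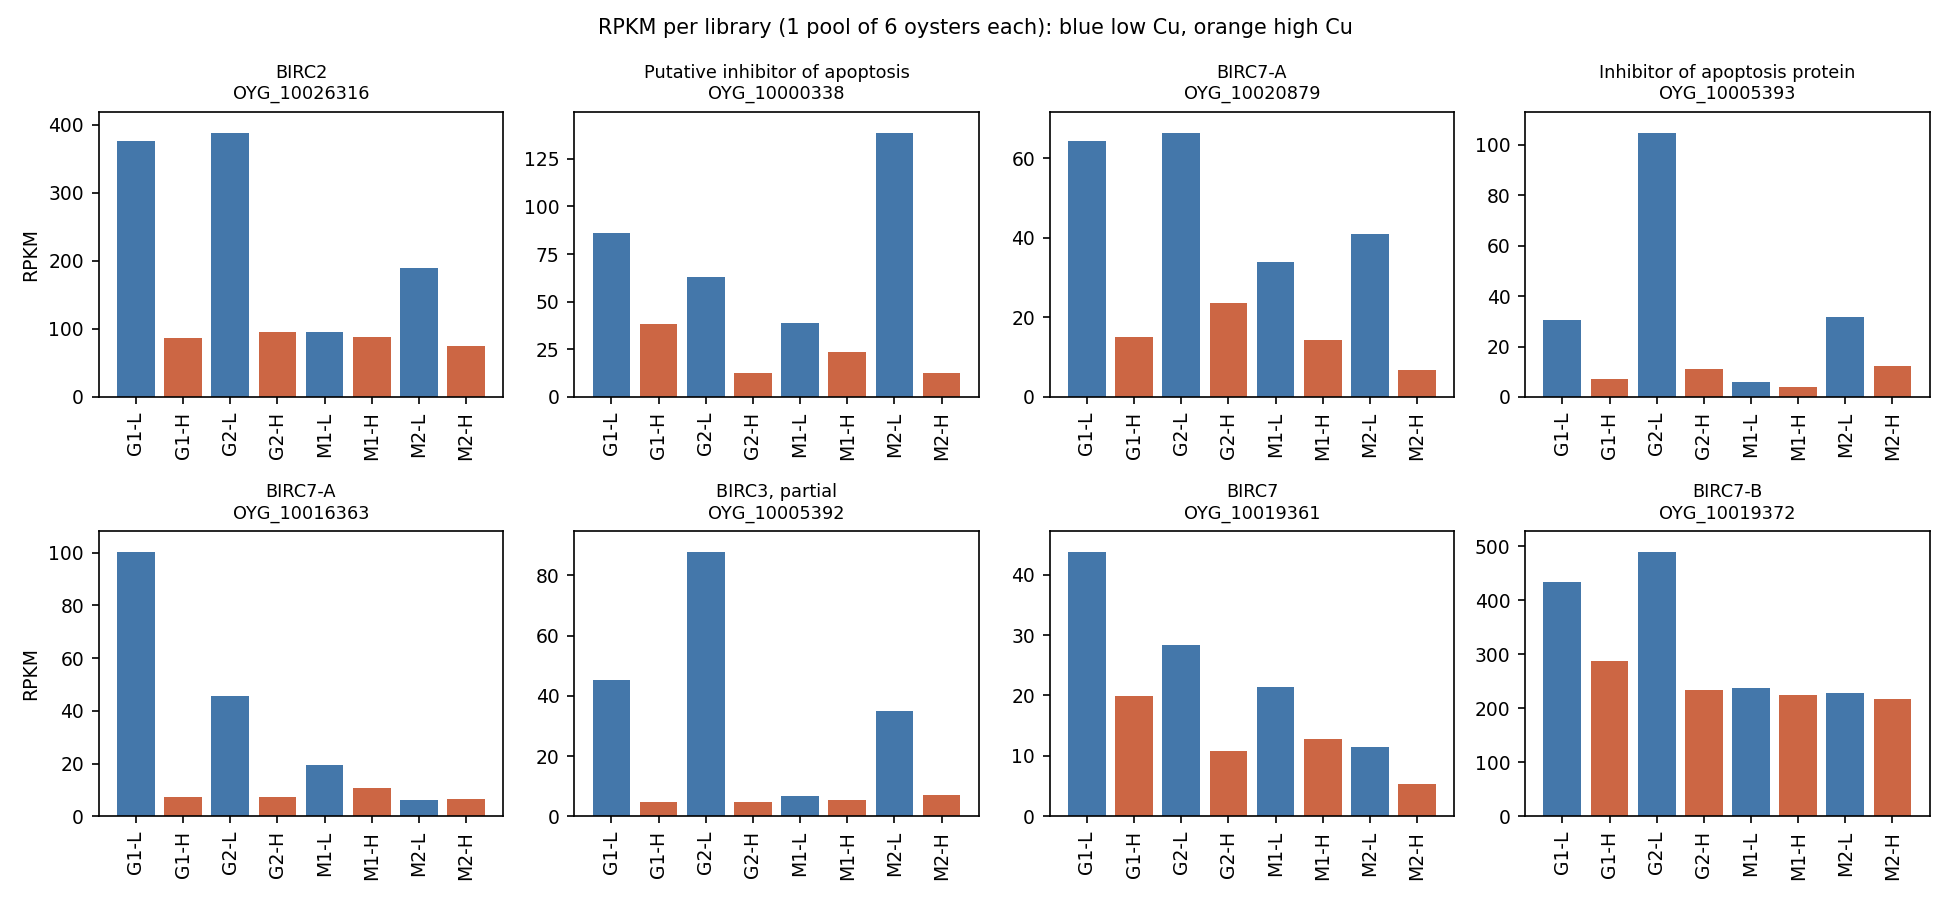
RPKM (vertical axes, from 0) in each of the 8 libraries (horizontal axes) for the 7 IAP genes that were lower in both gill pairs by the 2-fold and Fisher rule, and for BIRC7-B OYG_10019372_10031392, the most abundant IAP gene. Each bar is 1 library, blue for low and orange for high Cu, without replicates. BIRC2 OYG_10026316_10022648 stands at 376 and 389 RPKM in the low-Cu gills and at 86.1 and 96.0 in the high-Cu gills.

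Caspases did not move in 1 direction in gill. Of the 23 tested, 5 were lower in both pairs, 7 higher in both and 11 opposite, and the median change was -0.03 in G1 and 0.31 in G2. Of the 51 tested IAP genes, 22 were lower in both, 9 higher in both and 20 opposite. The share over all genes was not taken for these counts of direction. Caspase-8 OYG_10009763_10015946, an initiator caspase of the death receptor route in vertebrates, was the caspase that was 2-fold lower in both pairs. It stood at 15.8 and 7.12 RPKM in G1, and 19.3 and 3.20 in G2, from 11 to 63 reads. In mantle it was 3.37 and 5.69 in M1, and 12.2 and 4.98 in M2, so that the M1 pair went the other way. Of the 2 members that were at least 2-fold higher in both gill pairs, a partial caspase-2 (OYG_10026238_10010578) was so on 8 reads or fewer. The second, caspase recruitment domain-containing protein 11 (OYG_10009497_10014043), was classed with the other genes. It had at least 20 reads in the higher library of each pair. The 3 most abundant caspase-7 genes changed by -0.46 to 0.31 in the gill pairs.

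TNF alpha-induced protein 3 (OYG_10016154_10006381), known in mammals as A20, a brake on NF-kappa-B signalling, was lower in both high-Cu gills. It was at 117 and 74.9 RPKM in G1, and 205 and 85.6 in G2, and it was 60.8 and 66.0 in M1, and 93.5 and 63.1 in M2.

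Tested with limma over all genes, 0 members passed an adjusted p of 0.05 for high against low Cu in gill, and 1 of the 20123 genes did (0.00497%). With an unadjusted p under 0.05 there were 14 members, 11 of them IAP genes (21.6% of 51), beside 4.64% of all genes. The voom fit on recovered reads also called 0 members. The summed haemocyte plasma genes were 0.21 higher in G1-H than in G1-L and 2.30 higher in G2-H than in G2-L on the log2 scale. In G2 the cilia genes changed by 0.53, muscle genes by -0.48, shell edge genes by 0.14 and genes of the gonad list by 0.21. In G1 the lists other than plasma changed by -0.08 to 0.19. The part of these cells in the gill values was not tested.

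**Figure D2:**
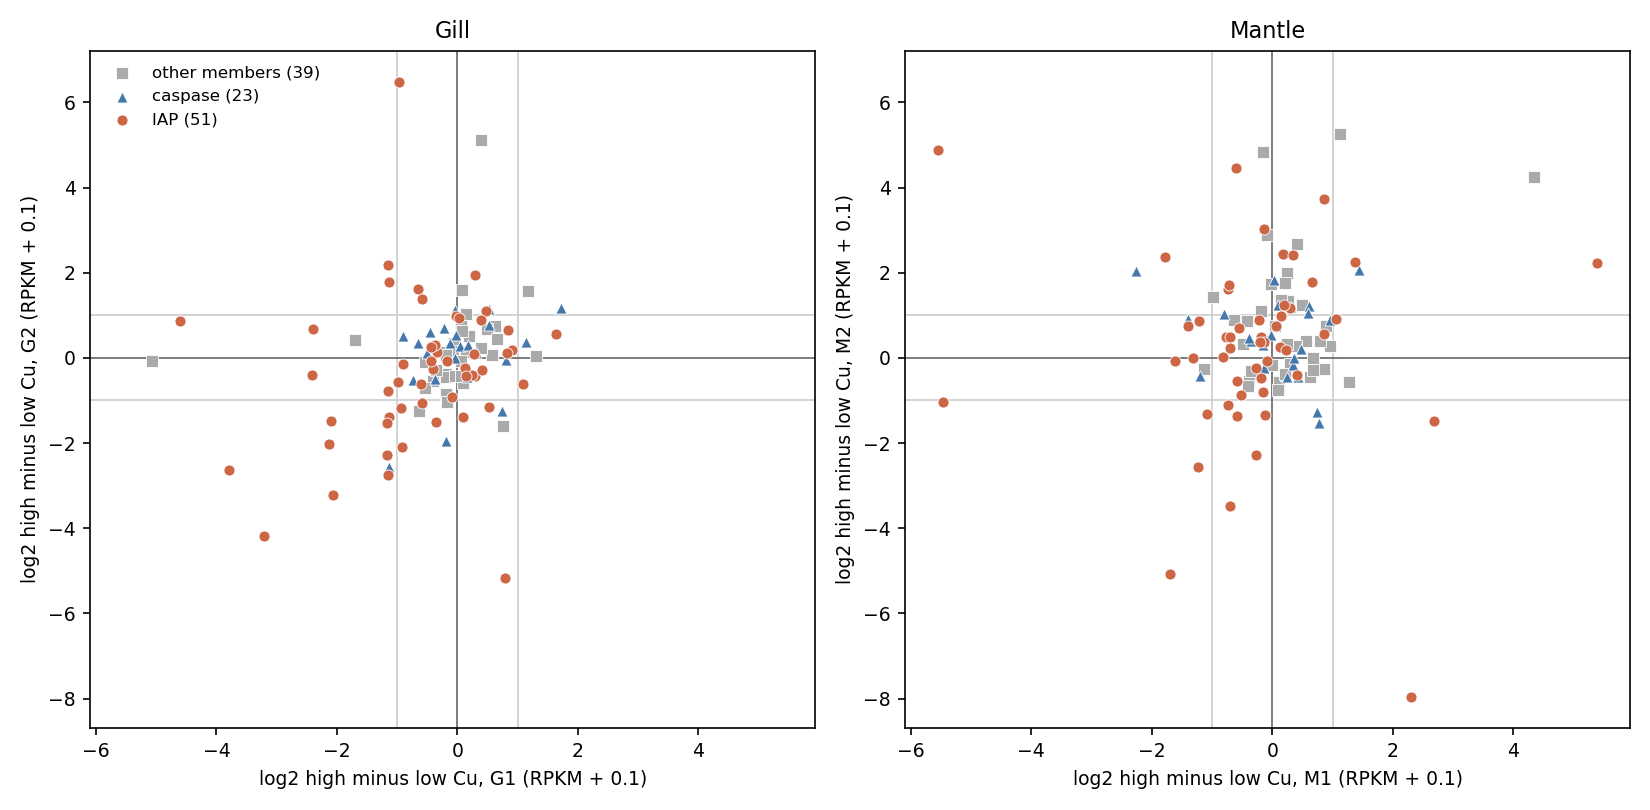
Change from low to high Cu on the log2(RPKM + 0.1) scale of the 113 tested members, in the G1 pair (horizontal) against the G2 pair (vertical) in gill, and in M1 against M2 in mantle. Points are genes, orange circles 51 IAP genes, blue triangles 23 caspases and grey squares 39 other members, and grey lines mark 2-fold. In gill 22 IAP genes were lower in both pairs, 9 higher in both and 20 opposite, and in mantle 16, 14 and 20. Genes without change in a pair are in none of these counts, and the share over all genes was not taken for them.

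In the mantle the same comparison gave IAP genes in both directions. At least 2-fold lower in both pairs were 4 members, all IAP, where 2.95% of all genes were. BIRC7-A OYG_10020879_10035315 was the 1 of them that also passed Fisher's exact test in both pairs (0.224% of all genes). Among the others was BIRC2 OYG_10024671_10039229, while BIRC3 OYG_10005229_10022789 had at most 6 reads in any mantle library. BIRC2 OYG_10024671_10039229 stood at 40.9 and 19.1 RPKM in M1, 34.2 and 13.6 in M2, and at 43.3 and 21.8 in G1, and 17.5 and 11.7 in G2. It was lower with high Cu in all 4 pairs, although in G2 the interval of the change, from -1.39 to 0.22, included 0.

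Higher by at least 2-fold in both mantle pairs were 5 members, where 5.02% of all genes were, 2 of them IAP genes. Apoptosis 1 inhibitor OYG_10026772_10015216 was the 1 member that also passed Fisher's exact test in both pairs (0.929% of all genes). It stood at 32.8 and 85.3 RPKM in M1, and 10.2 and 48.7 in M2. In gill it was 34.8 and 74.6 in G1, and 109 and 70.6 in G2, so that only the G2 pair went down. Caspase-7 OYG_10012553_10024788, an effector caspase, was 4.24 and 11.7 in M1, and 3.39 and 14.4 in M2. It was also higher with high Cu in both gill pairs, at 4.17 and 9.34 in G1, and 15.5 and 20.1 in G2. The remaining 3, BIRC2 OYG_10022060_10041607, LITAF-like OYG_10024160_10034849 and putative apoptosis inhibitor ORF99 OYG_10009390_10014895, were listed at 0 in 1 low-Cu mantle library or more and had at most 11 reads in any mantle library.

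With a 4-fold threshold 2 members were higher in mantle (1.18% of all genes) and 0 lower (0.815%). Limma called 0 members between high and low Cu in mantle, and 0 of all genes. 16 members had an unadjusted p under 0.05, where 12.2% of all genes did, and the smallest adjusted p was 0.364. Without the M2 pair, whose low-Cu library stands apart, the median change of the IAP genes in mantle was that of M1, -0.22, and in M2 it was 0.38, beside 0.32 over all genes. The summed haemocyte plasma genes changed by -0.12 in M1 and 0.64 in M2 on the log2 scale, and shell edge genes by 0.14 and 0.74. Muscle genes changed by 0.51 and 0.03, cilia genes by 0.23 and 0.31, and genes of the gonad list by 0.15 and 0.27. The part of these cells in the mantle values was not tested.

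Over the 4 pairs together, 17 members were lower with high Cu in each pair by any size, where 7.78% of all genes were, and 14 of these were IAP genes (27.5% of 51). 15 members were higher in each pair, where 15.3% of all genes were, with 3 IAP genes and 4 caspases among them. BIRC7-A OYG_10020879_10035315 and BIRC3 OYG_10005229_10022789 were at least 2-fold lower in all 4 pairs (0.353% of all genes), the latter on 7 reads or fewer, and 0 members were 2-fold higher in all 4 (0.288%). For the difference of the Cu change between gill and mantle limma called 0 members and 0 of all genes, with 8 members at an unadjusted p under 0.05 beside 4.35% of all genes. The fit with 1 common Cu effect over 4 pairs called 0 members as well, with 21 at an unadjusted p under 0.05, 13 of them IAP, beside 12.0% of all genes. Since gill and mantle pools of a class may have held the same oysters, the 4 pairs may not be independent in these counts and in this fit.

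IAP genes were then set against caspases. Summed IAP levels were 2202 and 1453 RPKM in G1, and 2449 and 1329 in G2. In mantle they were 1356 and 1248 in M1, and 1243 and 1157 in M2. Summed caspase levels were 576 and 590 in G1, and 556 and 627 in G2, and in mantle 462 and 525 in M1, and 391 and 496 in M2. IAP sums were thus lower with high Cu, by log2 changes of -0.60 in G1, -0.88 in G2, -0.12 in M1 and -0.10 in M2. Caspase sums changed by 0.03, 0.17, 0.18 and 0.34, beside median changes of all genes of 0.04, 0.10, 0.03 and 0.32. In M2 the median IAP gene was 0.38 higher although the IAP sum was lower. These sums weight genes by their length-scaled level, so that abundant genes decide them.

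The ratio of IAP to caspase RPKM was 3.82 and 2.46 in G1, 4.41 and 2.12 in G2, 2.93 and 2.38 in M1, and 3.18 and 2.33 in M2. The low-Cu libraries lay between 2.93 and 4.41 and the high-Cu libraries between 2.12 and 2.46, without overlap. In log2 the ratio changed by -0.63 in G1 and -1.06 in G2 (mean -0.84, SD 0.30, n = 2 pairs), and by -0.30 in M1 and -0.45 in M2 (mean -0.38, SD 0.10, n = 2 pairs). As the members were chosen with earlier results known, no test was made of this ratio. When each class was described by its median log2 level in place of its sum, the change was -0.34 on average in gill and -0.24 in mantle, with -0.02 in M1. By these medians the Cu classes overlapped. The IAP median minus the caspase median lay between -0.32 and 0.48 in the low-Cu libraries and between -0.78 and 0.17 in the high-Cu libraries.

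Most of the difference in the gill sums lay in the 9 IAP genes that were lower in both gill pairs, which that rule selected by their change. They summed to 760 and 184 RPKM in G1, and 803 and 171 in G2. The other 45 IAP genes summed to 1442 and 1269 in G1, and 1646 and 1157 in G2. In mantle the 9 summed to 238 and 180 in M1, and 464 and 137 in M2. There the other 45 summed to 1118 and 1068 in M1, and 779 and 1020 in M2. The selection used no mantle values, but the gill and mantle pools may have held the same oysters. The mantle sums may therefore not be independent of the selection. Of the other 45, BIRC7-B OYG_10019372_10031392 was also lower in both gill pairs, with 434 and 287 RPKM in G1, and 489 and 234 in G2, and it lay between 216 and 237 in the 4 mantle libraries.

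**Figure D3:**
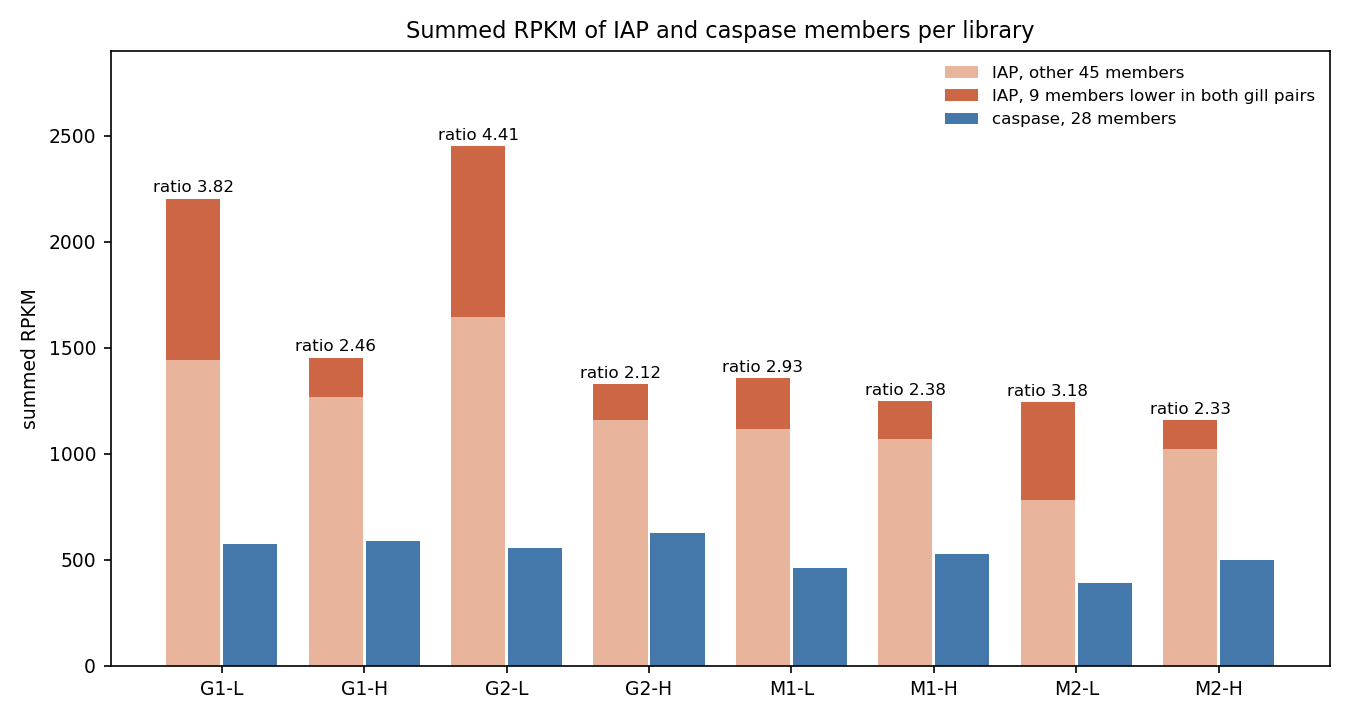
Summed RPKM (vertical axis, from 0) of the 54 IAP genes, stacked as the 9 that were lower in both gill pairs (dark orange) and the other 45 (light orange), and of the 28 caspases (blue) in each library, with the ratio of the sums above each pair of bars. There are no replicates and no error bars. The ratio is highest in G2-L, at 4.41, and lowest in G2-H, at 2.12.

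Gill and mantle were compared with 4 libraries a side, which gave the test with the most residual degrees of freedom (6). By limma, 14 members differed at an adjusted p under 0.05. 11 of them were higher in gill, where 8.06% of all genes were, and 3 were lower, where 4.85% of all genes were. The members' shares were 9.73% and 2.65%, and at an unadjusted p under 0.05 there were 28 members (24.8%) beside 25.9% of all genes, so that the number of calls was near that of the background. Those higher in gill were 4 IAP genes, 4 LITAF genes, 2 caspases and 1 Bcl-2 family gene. The median difference was 0.54 on the log2 scale for the 113 members, 0.59 for the IAP genes, 0.43 for the caspases and 1.40 for the LITAF genes, against 0.21 over all genes. Without overlap between the tissues, 20 members were higher in every gill library, where 12.6% of all genes were, and 4 in every mantle library, where 6.99% were. The libraries of a tissue differ in Cu class and exposure, and the p-values measure the spread between these pools.

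The smallest adjusted p among members was that of a LITAF gene. LITAF-like OYG_10024162_10024580 was at 450 and 341 RPKM in G1, 415 and 282 in G2, and at 29.5 and 57.4 in M1, and 49.5 and 59.7 in M2. It averaged 372 ± 75 RPKM in gill and 49.02 ± 13.7 in mantle (mean ± SD, n = 4), and the log2 difference was 2.95 ± 0.27 (SE; limma adjusted p = 0.000486), which is 7.73-fold. LITAF-like OYG_10024159_10034848, the most abundant of the class, averaged 687 ± 195 in gill and 222 ± 94.7 in mantle (SD, n = 4; limma adjusted p = 0.00667). LITAF-like OYG_10024158_10034847 followed with 48.3 ± 12.1 and 17.9 ± 5.27, and OYG_10017758_10011433 with 14.0 ± 5.25 and 5.21 ± 1.25. In contrast LITAF-like OYG_10024157_10034844 did not separate the tissues, at 212 to 378 RPKM in gill and 177 to 321 in mantle, and OYG_10017751_10035055 was higher in mantle, 18.0 ± 2.08 against 7.71 ± 4.5. Reads shared by near-identical copies were not counted, so that levels of close paralogs, in this row of neighbouring identifiers as well as among IAP genes, are uncertain.

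TNF receptor superfamily member 16 (OYG_10003766_10015662), in vertebrates the neurotrophin receptor p75, was the member most biased to mantle. It was 27.1 and 65.5 RPKM in M1, 33.4 and 22.5 in M2, 1.13 and 0.997 in G1, and 4.72 and 2.24 in G2. The log2 difference of gill to mantle was -4.11 ± 0.53 (SE; limma adjusted p = 0.00125), or 17.2-fold on the log2 scale. Apoptosis-inducing factor 3 (OYG_10006300_10014213), a relative of the mitochondrial flavoprotein AIF, was also higher in mantle, with 114 ± 34.7 against 47.8 ± 9.13 RPKM (SD, n = 4; limma adjusted p = 0.0130).

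Of the caspases, a partial caspase-8 (OYG_10026635_10032298) was higher in gill by 7.44-fold on the log2 scale, at 7.51 and 6.60 RPKM in G1, 25.7 and 6.60 in G2, against 0.848 and 1.52 in M1, and 2.23 and 0.705 in M2 (limma adjusted p = 0.00907). It had only 1 to 3 reads in each mantle library. Caspase-3 (OYG_10014403_10005032), an effector caspase, was tight within tissues, at 39.8 ± 1.99 in gill and 21.4 ± 3.35 in mantle (SD, n = 4; limma adjusted p = 0.0188), and changed by -0.03 to 0.53 with Cu class in the 4 pairs. Putative Bcl-2-like protein antagonist/killer 2 (OYG_10008808_10034869), named after the pro-apoptotic BAK, averaged 14.4 ± 2.73 and 7.02 ± 1.81 (limma adjusted p = 0.0473).

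IAP genes higher in gill were BIRC2 OYG_10016364_10019639, BIRC7-A OYG_10019017_10019639 and Apoptosis 2 inhibitor OYG_10023447_10041476 and OYG_10028269_10035895. BIRC2 OYG_10016364_10019639 averaged 13.5 ± 9.57 RPKM in gill and 2.57 ± 0.849 in mantle (SD, n = 4; limma adjusted p = 0.0219). BIRC7-A OYG_10019017_10019639 averaged 37.1 ± 10.9 and 16.4 ± 3.69 (limma adjusted p = 0.0275). Both Apoptosis 2 inhibitor genes had 1 mantle library listed at 0 and mean mantle levels of 0.762 and 0.665 RPKM. They passed the filter on the mean only through gill, which favoured the call, and their fitted differences depend on the pseudocount, so that their place among the 14 supports nothing further. None of these 4 belonged to the 9 that were lower with high Cu in both gill pairs. The count of 14 depended on single libraries. Leaving out M1-L gave 7 members, leaving out G1-L or G2-H gave 8 each, leaving out G1-H gave 9, and leaving out M2-L gave 10. TNFRSF16, apoptosis-inducing factor 3, the partial caspase-8 and the LITAF-like genes OYG_10024158_10034847, OYG_10024159_10034848 and OYG_10024162_10024580 were called in all 18 settings, and caspase-3 in 15 of 18. BIRC2 OYG_10016364_10019639 and BIRC7-A OYG_10019017_10019639 were called in 13 of 18, LITAF-like OYG_10017758_10011433 in 10, LITAF-like OYG_10017751_10035055 in 8 and the BAK-like gene in 7. The Apoptosis 2 inhibitor genes OYG_10023447_10041476 and OYG_10028269_10035895 were called in 9 and 8 of 17. With gill and mantle pools of a class paired, which the sources leave unclear, limma called 17 members, 14 higher and 3 lower. There the BAK-like gene (limma adjusted p = 0.0651) and LITAF-like OYG_10017751_10035055 (0.0528) were no longer called, and BIRC7 OYG_10019361_10024154 was (0.0343). When libraries were centred on their median, 8 members were higher and 4 lower in gill, and over all genes 1324 were higher and 1177 lower, in place of 1622 and 976.

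**Figure D4:**
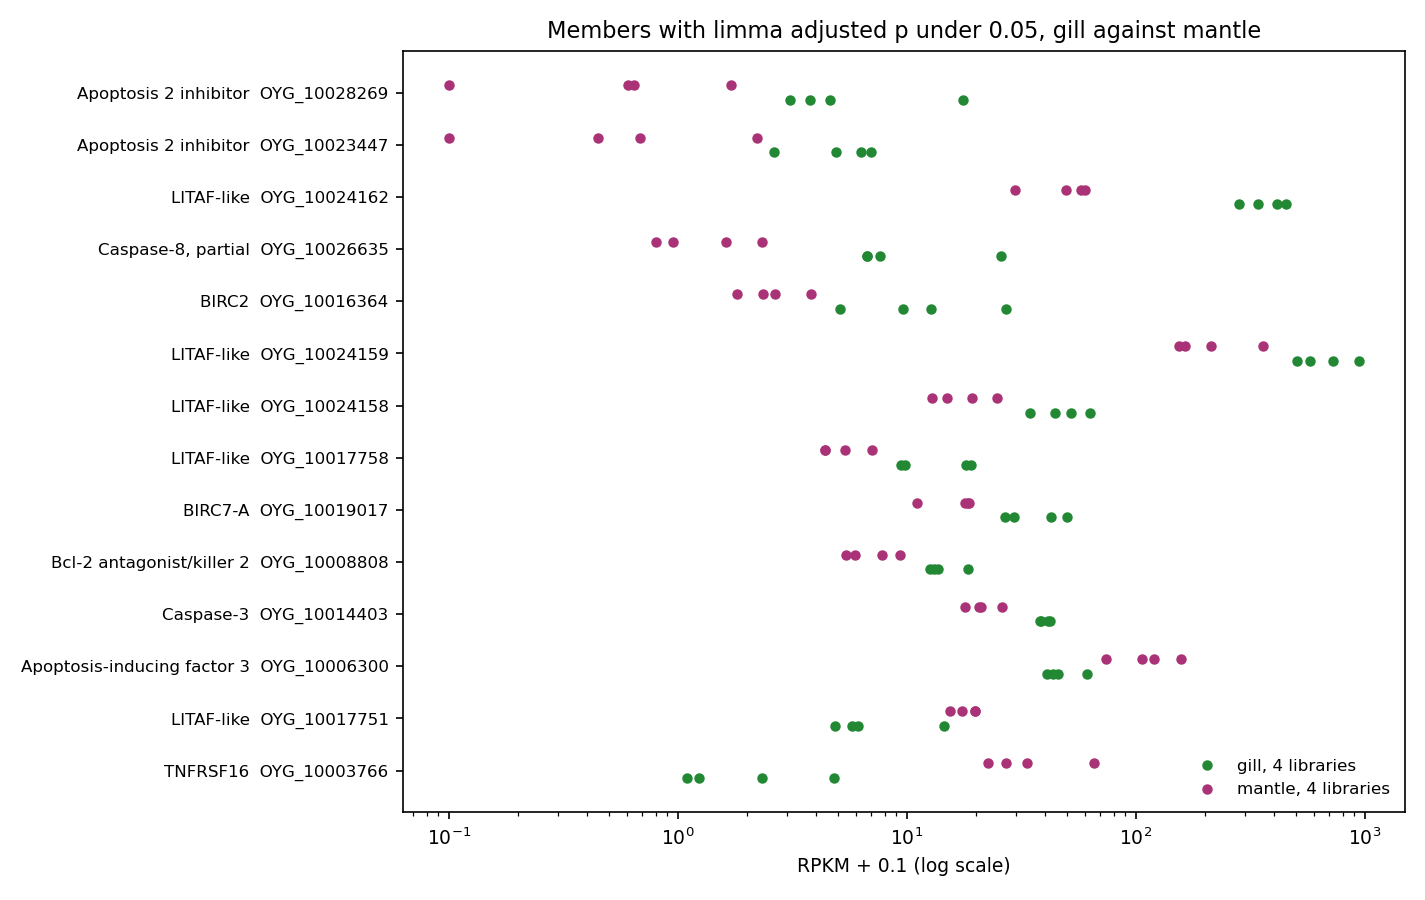
RPKM + 0.1 on a log axis of the 14 members that differed between gill (green, 4 libraries) and mantle (purple, 4 libraries) by limma, with 1 row for each gene and 1 point for each library. Rows are ordered by the log2 difference, from TNFRSF16 at -4.11 (bottom) to Apoptosis 2 inhibitor OYG_10028269_10035895 at 3.45 (top), whose fitted difference depends on the pseudocount since 1 mantle library was listed at 0.

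Oyster group 2 was compared with group 1 within each tissue, which asks what differed after captivity and Cu exposure. These comparisons use the same 8 libraries as those of Cu class. Limma called 0 members in gill and 0 in mantle, while 10 of all genes were called in gill (9 higher, 0.0447%, and 1 lower, 0.00497%) and 0 in mantle. The voom fit also called 0 members. At an unadjusted p under 0.05 there were 5 members in gill (8.12% of all genes) and 5 in mantle (7.09%). In gill 3 members were at least 2-fold higher in group 2 in both Cu classes (3.94% of all genes) and 1 lower (4.61%), and in mantle 1 was higher (3.77%) and 3 lower (4.23%). In each of these counts the share of the members, at most 4.42%, was under that of all genes.

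In gill the higher members were caspase-7 OYG_10012553_10024788, TNFRSF16 OYG_10003766_10015662 and apoptosis regulator R1 OYG_10005605_10011068. TNFRSF16 and apoptosis regulator R1 did not meet the rule of at least 20 reads in the higher library of each comparison. Caspase-7 OYG_10012553_10024788 went from 4.17 to 15.5 RPKM between the low-Cu gills and from 9.34 to 20.1 between the high-Cu gills. In the mantle this gene went from 4.24 to 3.39 and from 11.7 to 14.4. Inhibitor of apoptosis protein OYG_10005393_10006012 was the member higher in mantle, from 6.03 to 31.5 in low-Cu and from 3.99 to 12.2 RPKM in high-Cu oysters. Apoptosis 2 inhibitor OYG_10016355_10008985 was lower in mantle, from 19.2 to 3.29 and from 16.4 to 6.23. In gill its levels were 29.1 and 18.4 in G1, and 4.78 and 14.9 in G2.

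The members whose log2 level over the 8 libraries ran most like BIRC7-A OYG_10020879_10035315 were BIRC2 OYG_10026316_10022648 (Pearson r = 0.87), an unnumbered caspase (OYG_10022344_10041378, 0.85), BIRC3 OYG_10005229_10022789 (0.83), BIRC7 OYG_10019361_10024154 (0.80) and BIRC3 OYG_10005392_10006012 (0.78). These values describe 8 libraries that share tissue and Cu class. An r over 0.8 was reached by 3 of 112 members (2.68%) and by 0.780% of all genes. The unnumbered caspase lay between 8.48 and 14.1 RPKM in all libraries, and its changes with Cu were between -0.50 and -0.13.

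Other genes of the pathway outside the text rule, among them FADD, TNF receptor-associated factors, programmed cell death and death-associated proteins and poly [ADP-ribose] polymerases, numbered 89 tested. In gill 2 of them were at least 2-fold lower and 1 higher with high Cu in both pairs, and in mantle 2 were lower and 5 higher. These shares, 2.25% and 1.12% in gill and 2.25% and 5.62% in mantle, were near or under those of all genes, 3.13% and 2.31% in gill and 2.95% and 5.02% in mantle. Their median change was -0.04 in G1, 0.15 in G2, 0.10 in M1 and 0.28 in M2. Between tissues 6 were higher (6.74%, beside 8.06% of all genes) and 0 lower in gill by limma, with a median difference of 0.52.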

How the data were processed

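DGE libraries were made from pools of 6 oysters. Perl scripts of the authors took out tags of low quality, empty tags and tags seen once. The remainder was aligned to the genome of *C. gigas* by tophat2, 1 mismatch being tolerated, and genes were credited with unambiguous tags. Per the labels TopHat and Cufflinks were used, with no version given in the sources used here, and the description of the library preparation differs between passages. The deposited values are RPKM, and a dash, which replaces the value of genes without reads, was taken as 0. Each of the 8 columns was matched to 1 library by name.

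RPKM values were raised by a pseudocount of 0.1 and log2-transformed, and 20123 of 25647 genes with a mean of at least 1 RPKM were tested with limma 3.58.1 (R 4.3.3, intensity trend), with p-values adjusted by Benjamini-Hochberg over all genes. The tissue fit had no covariate (6 residual degrees of freedom), the Cu fit had 4 blocks of oyster group within tissue (2), and the group fit 4 group means (4). Reads came out whole for all 25181 genes with any (100%), with a largest deviation of 1.6e-05. Gene lengths were multiples of 3 for 99.8%, which makes them coding lengths. The recovered reads entered a two-sided Fisher's exact test between the libraries of a pair, exact Clopper-Pearson 95% intervals and limma voom. Of these steps, only the recovery of reads, the tissue fit and the Cu fit in gill were tested on simulated data. Python 3.11.15, numpy 2.4.6, pandas 2.3.3, scipy 1.17.1 and matplotlib 3.10.9 were used.

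Members, classes and lists were chosen with earlier results of these data known. Named by rule were OYG_10020879_10035315, the 3 most abundant members of each class, the 8 largest called tissue differences in each direction, up to 5 members with 2-fold changes in both pairs and at least 20 reads per direction, tissue and comparison, and the 5 members most like OYG_10020879_10035315. Others were chosen after their values were seen. Values of some single genes are not reported here. The RefSeq gene table held 0 of the 25647 gene identifiers, and genes are therefore printed without coordinates. Alternatives were other pseudocounts (0.01 and 1) and filters (none and a mean of 5), median centring, quantile normalization, no trend, a replicate block, voom, a 4-fold threshold and each library left out.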

Additional observations from a re-analysis of the deposited data

Results flagged for a closer look

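Within the tissues, 5 of 84 groups of 4 libraries looked at over the 42 named genes held 1 library far from the other 3 by Dixon's test at its 95% critical value, and chance alone gives about 1 in 20. Apoptosis inhibitor 5 (OYG_10007759_10025129) was low in both exposed low-Cu libraries, at 57.41 RPKM in G2-L against 94.61 to 98.98 in the other gills (gap of 0.917 of the range) and at 44.73 in M2-L against 69.49 to 75.51 in the other mantles (0.841). TNF alpha-induced protein 8 (OYG_10024664_10039252) was at 19.36 RPKM in M2-L and between 72.94 and 86.56 in the other mantles (0.886). BIRC3 OYG_10005392_10006012 was at 35.09 in M2-L and between 5.433 and 7.145 in the other mantles (0.854). The partial caspase-8 OYG_10026635_10032298 was at 25.70 in G2-L and between 6.601 and 7.506 in the other gills (0.906). All 5 were in the low-Cu library of the exposed oysters, of which M2-L also had the lowest median gene of the series, and the part of that library in these values was not tested.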

How the results depend on the processing

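Between gill and mantle, the 14 members called became 7 to 11 when 1 library was left out. Whether gill and mantle pools with the same group and Cu class held the same oysters is not clear from the sources, and their deviations correlated by 0.0925 to 0.252, with 3 of 4 pairs over 0.1. Paired in this way, the replicate block gave 17 members (14 higher and 3 lower) there, 0 members for oyster group in gill and mantle, and the Cu fit without the block 0. Limma called 0 members for Cu class and for oyster group in every setting run. Counts of members past 2-fold in both pairs, which are small, moved more. At a 4-fold threshold they were 0 higher and 4 lower for Cu in gill, 2 and 0 for Cu in mantle, 0 and 0 for oyster group in gill, and 0 and 1 for oyster group in mantle. With a mean of at least 5 RPKM there were 1 higher for Cu in gill, 2 higher and 2 lower for Cu in mantle, 0 lower for oyster group in gill and 1 lower for oyster group in mantle. With a pseudocount of 1 there was 1 higher for Cu and 1 higher for oyster group in gill. Without a filter, and with median centring, 2 were higher for oyster group in mantle. By class medians the log2 ratio of IAP to caspases changed by -0.34 in gill and -0.24 in mantle. The cause of these shifts was not tested. No direction of a called result was reversed. Pools of 6 oysters, 1 per condition, and fewer than 20 reads for many members limit these counts.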
